A study of Mus musculus with 13 samples.

Results

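M2 CD4SP thymocytes that had matured in a thymus with or without cathepsin L in its epithelium were stimulated through their TCR and CD28 for 4 h, and their RNA was compared between the genotypes. The comparison rested on 4 of the 13 libraries of the series, each from 1 mouse, taken by their label of 4 h with anti-CD28 and LLO:I-Ab. They were CtslΔTEC mice 6 and 7 and Ctsl fl/fl (WT) mice 5 and 6. The other 9 libraries, from unstimulated M2 cells of 5 CtslΔTEC and 4 WT mice, were used only to ask whether a difference was also seen before stimulation. All mice, controls included, carried the Lm54 TCR transgene on a Rag1-/- and C57BL/6J background, were of both sexes and 8 to 12 weeks old. CtslΔTEC mice carried the conditional Ctsl allele with Foxn1-cre, which acts in thymic epithelial cells (TECs). The thymocytes themselves kept Ctsl, so its level in them does not check the deletion. Sorted CD69-MHCI+ cells received soluble anti-CD28 at 250 ng/ml and plate-bound LLO:I-Ab monomer at 1 µg/ml. LLO:I-Ab is a listeriolysin O peptide held by the MHC class II molecule I-Ab, the ligand of the Lm54 TCR.

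CTSL is a lysosomal protease that helps to shape the self-peptides that cortical TECs present on MHC class II, and thymocytes are positively selected on those peptides. A T cell that meets its ligand together with CD28 costimulation turns on immediate early factors within minutes, cytokine genes such as Il2 within hours, and programmes of lipid, amino acid and glucose metabolism that precede division. The strength of self-recognition in the thymus is known to set levels of inhibitors such as CD5 and CD6, which tune the response of the mature cell.

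The 4 stimulated libraries held 8085463 to 27184520 estimated counts, and WT mouse 5 had the fewest. Transcript counts were summed to genes. All 8 CD4 T cell markers were detected, at a summed level of 11590 to 12270 TPM, where TPM is a level scaled for library size and transcript length. The TEC keratins Krt5 and Krt8 were at 0, and the summed level of the 7 TEC markers was 8.45 to 12.5 TPM. Y-linked transcripts were near 0 in 1 library of each genotype, so sex did not follow genotype among the stimulated mice. WT mouse 5 stood apart in 3 further measures. Ribosomal protein transcripts took 22.2% of its TPM against 18.4% to 19.7% in the other libraries, and retained-intron transcripts took 5.995% of its counts against 7.63% in WT mouse 6. This share was higher in both CtslΔTEC mice, at 7.94% and 8.55%, so it separated the genotypes. Mitochondrial transcripts took 3.10% of its counts against 2.23% to 2.63%. The median gene differed by 0.225 on the log2 scale between the 2 WT mice and by 0.163 between the 2 CtslΔTEC mice. With 2 mice against 2, an exact permutation test of a single gene cannot give a two-sided p below 0.333, so the tests below come from edgeR's quasi-likelihood fit across all genes, with p-values adjusted by Benjamini-Hochberg and called under 0.1.

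Of 11763 genes tested, 339 were higher (2.88%) and 788 lower (6.70%) in CtslΔTEC cells, together 9.58%. These percentages are the background for every list that follows in this fit. In other settings the share of all genes called moves too, so a list's count there cannot be set against them. The number of called genes depended on single libraries. It was 671 without CtslΔTEC mouse 6 and 2254 without WT mouse 6, and in the latter 49.2% of the called genes were higher. Expression values are given as CPM, counts scaled to library size with TMM factors, in the order CtslΔTEC mouse 6, CtslΔTEC mouse 7, WT mouse 5 and WT mouse 6. Differences are log2 fold changes of CtslΔTEC against WT with their standard error (SE).

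Among called protein-coding genes whose log2 CPM averaged 3 or more and whose genotypes did not overlap, the largest fold change was that of Il2, the growth factor of activated T cells. Its CPM was 2.97 and 5.50 in CtslΔTEC and 49.9 and 47.5 in WT. Both CtslΔTEC libraries were far below both WT libraries, by 11.2-fold, at a log2 fold change of -3.48 (SE 0.24, adjusted p = 3.75e-05). The gene (ENSMUSG00000027720, GRCm38 chr3:37120523-37125959, minus strand) was read from 34, 91, 411 and 1306 counts. In unstimulated cells its median was 0 CPM in both genotypes, so no difference could be read there. Ccr8, a chemokine receptor, had 13.5 and 13.8 CPM against 79.4 and 83.1, both WT libraries again lying above, and was 5.95-fold lower (log2 fold change -2.57, SE 0.13, adjusted p = 1.06e-05).

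The other genes lower by most were of mixed roles. Trat1, a transmembrane adaptor of the TCR complex, had 5.85 and 7.19 CPM against 46.6 and 25.0 (log2 fold change -2.42, SE 0.28). Akr1c18, a steroid dehydrogenase, had 5.85 and 4.95 against 59.1 and 39.4 (-3.18, SE 0.23). Sesn2, a stress-induced inhibitor of mTORC1, had 4.89 and 4.41 against 25.0 and 13.9 (-2.04, SE 0.29). Chdh, a choline dehydrogenase, had 2.62 and 4.59 against 19.1 and 18.6 (-2.35, SE 0.27). That the genotypes did not overlap in these 4 genes was required by their choice. Igfbp4 (-2.55), Tmem64 (-2.05), the cold-shock protein Ybx3 (-2.03), the prostacyclin receptor Ptgir (-1.97), the integrin Itgb3 (-1.95) and Itih5 (-1.83) were lower by similar amounts, with adjusted p of 0.00197 or less.

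Among genes higher in CtslΔTEC cells, Nrn1, the membrane-anchored protein neuritin, had 59.3 and 56.4 CPM against 9.23 and 10.2. It was 5.91-fold higher (log2 fold change 2.56, SE 0.15, adjusted p = 1.52e-05). Adgre5, the adhesion receptor CD97, had 260 and 295 against 84.2 and 100.2 (1.59, SE 0.14, adjusted p = 0.000206). Nr4a2, an orphan nuclear receptor induced by TCR signals, had 714 and 614 against 215 and 325 (1.30, SE 0.19, adjusted p = 0.00467). Cd226, a costimulatory receptor, had 44.3 and 47.3 against 16.4 and 17.6 (1.42, SE 0.14). The choice of these 4 genes required that the genotypes did not overlap. Among them the WT mice differed by most in Nr4a2. Fanci (1.73), Mpp7 (1.65), Tbc1d30 (1.44), Igsf23 (1.40) and Hpcal1 (1.29) were also higher. Mid1 on the X chromosome was higher by 2.34 (SE 0.31), with 241 and 351 CPM against 35.1 and 79.7, and this call was lost in the model of all 13 libraries. The class I gene H2-Q7 was higher by 1.31 (SE 0.23), and since its reads can be shared with near-identical Q-region genes its level is uncertain.

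**Figure D1:**
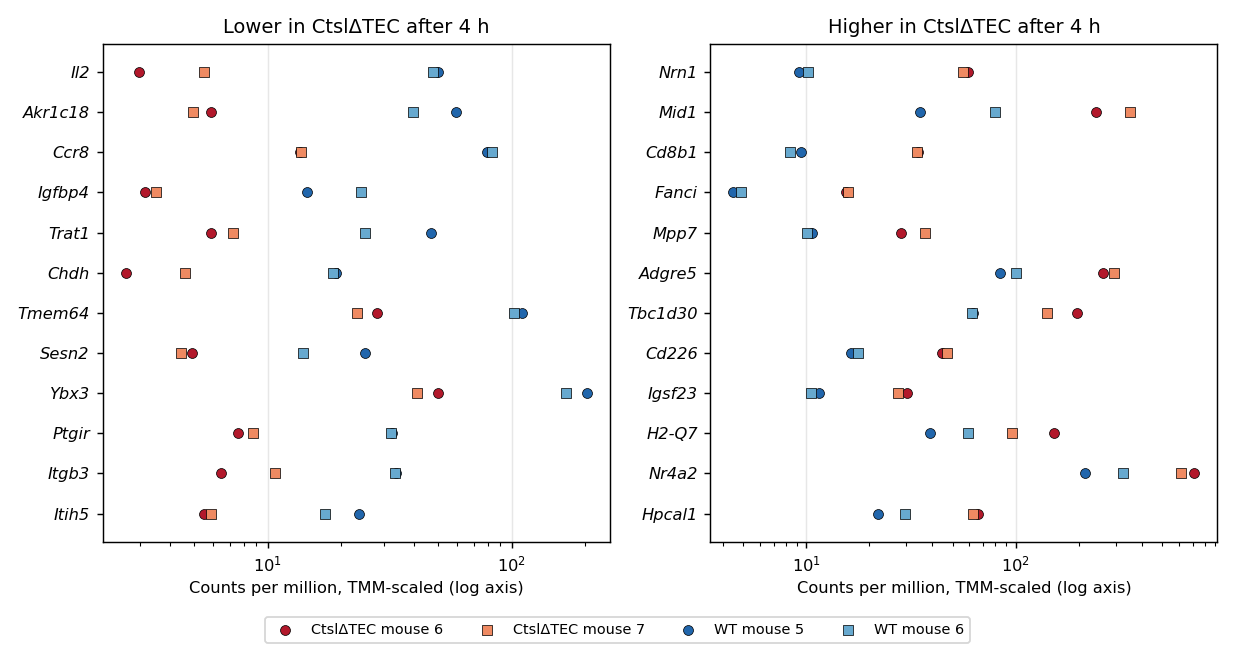
CPM (log axis) in each of the 4 stimulated libraries for the 12 genes with the largest negative (left) and positive (right) log2 fold change among called protein-coding genes whose log2 CPM averaged 3 or more. Each point is 1 mouse, and no gene overlaps between the genotypes, which the choice of genes required.

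Genes of cholesterol synthesis were lower in CtslΔTEC cells, from the first to the last steps of the pathway. Of the 20 enzymes, all measured, 14 were called lower and 0 higher, against a background of 6.70% lower, and all 20 had a negative log2 fold change. Their median was -0.81, against 0.00 over all genes. The values below follow the order of the pathway.

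The upper steps make mevalonate. Hmgcs1, which makes HMG-CoA, had 163 and 152 CPM in CtslΔTEC and 358 and 217 in WT (log2 fold change -0.86, SE 0.20, adjusted p = 0.0330). The kinases and decarboxylase that turn mevalonate into isoprenoid units differed more. Mvd had 6.03 and 9.18 against 28.4 and 15.7 (-1.49, SE 0.30), the lowest fold change of the pathway, and Mvk (-1.41) and Pmvk (-1.18) were close to it. Fdps (-0.97), Fdft1 (-0.93) and Sqle (-0.77), which build squalene and oxidise it, were called lower as well.

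In the last steps, which turn lanosterol into cholesterol, Dhcr7 had 13.1 and 18.3 CPM against 44.5 and 31.5 (log2 fold change -1.25, SE 0.21, adjusted p = 0.00881). Sc5d had 53.1 and 54.6 against 121 and 74.6 (-0.85, SE 0.20). In both the CtslΔTEC libraries lay together and below WT, while WT mouse 5 was above WT mouse 6. The same spread between the WT mice ran through the pathway. The median over the 20 genes of log2 CPM minus the gene's mean was -0.41 and -0.34 in CtslΔTEC, 0.70 in WT mouse 5 and 0.05 in WT mouse 6. Without WT mouse 5 the count of called enzymes fell to 7 and the median to -0.43, and without WT mouse 6 they were 18 and -1.12. The calls of Mvk, Pmvk, Idi1, Fdft1, Sqle, Cyp51 and Msmo1 were lost without WT mouse 5. Those of Hmgcs1, Mvd, Fdps, Sc5d and Dhcr7 held in all 16 other settings run. With every library thinned to the total of WT mouse 5, 15 enzymes were called lower at a median of -0.83. The part of the other features of WT mouse 5 in this list was not tested.

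Genes of sterol transport within the cell were called lower and genes of efflux higher. Stard4 and Npc2, which carry cholesterol within the cell, both had a log2 fold change of -0.54. Abca1, which exports cholesterol, had 18.2 and 15.1 CPM against 5.71 and 7.86 (1.25, SE 0.23, adjusted p = 0.0128). Abcg1, a second exporter, had 88.0 and 73.5 against 44.5 and 57.9 (0.65, SE 0.15, adjusted p = 0.0380). Both exporters were also called higher in unstimulated cells, by 2.23 for Abca1 and 0.45 for Abcg1. With the level of Y-linked transcripts as a covariate these were 1.89 and 0.40, and Abcg1 was no longer called. The sterol sensor partner Insig2 was higher by 0.63 (adjusted p = 0.0976). Of the 13 genes of this list that were tested, 3 were called in each direction. Srebf2, the transcription factor of the pathway, had a log2 fold change of -0.23 (SE 0.14, adjusted p = 0.406) and did not pass the test. Stard4 and Npc2 lost their calls without WT mouse 5 and without CtslΔTEC mouse 7, Insig2 without WT mouse 5 and without CtslΔTEC mouse 6, and Abcg1 without CtslΔTEC mouse 6. Abca1 held without each library but lost its call in the 13-library model.

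Promoter sequences of sterol genes are shown because 1 of them carries the sterol regulatory element to which SREBP factors bind. They are from RefSeq on GRCm38.p6, from 250 bases before to 50 after an annotated start, 5′ to 3′ on the gene's strand, with motif matches in capitals. Dhcr7 was among the 3 called sterol genes with the smallest p. Hmgcs1 was added after its values were seen. Dhcr7 is at chr7:143829964-143830263 on the plus strand, 588 bases from the start of its most abundant transcript, and Hmgcs1 at chr13:119690101-119690400 on the plus strand.
Dhcr7: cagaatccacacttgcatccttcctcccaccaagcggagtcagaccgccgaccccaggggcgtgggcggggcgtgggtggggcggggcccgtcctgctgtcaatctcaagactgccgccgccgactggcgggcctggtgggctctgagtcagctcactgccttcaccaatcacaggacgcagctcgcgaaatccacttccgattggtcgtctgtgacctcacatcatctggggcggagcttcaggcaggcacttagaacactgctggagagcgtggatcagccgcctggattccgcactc
Hmgcs1: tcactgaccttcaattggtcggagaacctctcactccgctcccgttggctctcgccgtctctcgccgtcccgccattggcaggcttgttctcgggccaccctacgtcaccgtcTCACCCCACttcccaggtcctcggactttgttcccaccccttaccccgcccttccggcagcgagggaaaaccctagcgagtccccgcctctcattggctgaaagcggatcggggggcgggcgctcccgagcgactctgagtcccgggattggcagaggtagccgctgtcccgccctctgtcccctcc
The motifs searched on both strands were the sterol regulatory element TCACNCCAC, the C/EBP-ATF element TGATGCAA and the E-box CACGTG. Hmgcs1 held TCACCCCAC, beginning 137 bases before the start, and the Dhcr7 window held none of the 3. TCACNCCAC was present in 1 of 32 promoters of the sterol genes (3.12%) and in 408 of all 32851 (1.24%). CACGTG was present in 7 of the 32 (21.9%) against 7.15% of all.

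Genes of fatty acid synthesis were lower in part. Of 15 tested, 6 were called lower and 0 higher. Scd2, a desaturase that makes monounsaturated fatty acids, had 29.9 and 26.9 CPM against 57.2 and 58.6 (log2 fold change -1.03, SE 0.13, adjusted p = 0.00218). Both genotypes were tight and well apart. Elovl6, an elongase, had 6.20 and 5.38 against 15.8 and 11.4 (-1.21, SE 0.25, adjusted p = 0.0213). The citrate carrier Slc25a1 (-0.72) and ATP-citrate lyase Acly (-0.45), which supply acetyl-CoA in the cytosol, were lower. Fasn, the synthase itself, had 610 and 668 against 718 and 692 (-0.14, SE 0.14, adjusted p = 0.626). In fatty acid oxidation 4 of 21 were called lower and 0 higher, with Hadh at 1.92 and 2.11 against 7.89 and 5.24 (-1.66, SE 0.35, adjusted p = 0.0224). The others were Acaa1a (-0.56), Decr1 (-1.09) and Etfb (-0.89). The count of the synthesis list was 3 without CtslΔTEC mouse 7, and that of the oxidation list was 1 without CtslΔTEC mouse 6, 6 without WT mouse 6 and 9 in the 13-library model. Acly lost its call without either CtslΔTEC mouse, Acaa1a without CtslΔTEC mouse 6, Decr1 without any library but WT mouse 5, and Etfb without CtslΔTEC mouse 6 or WT mouse 5.

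ATF4 is a transcription factor that is translated when amino acids run short and turns on amino acid synthesis, import and stress genes. Of 23 genes of this group that were tested, 14 were called lower in CtslΔTEC cells and 1 higher, with a median of -0.64. Atf4 itself had 352 and 340 CPM against 431 and 352 (log2 fold change -0.18, SE 0.14, adjusted p = 0.524), a difference within the spread between the WT mice.

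Among amino acid enzymes, Phgdh, the first enzyme of serine synthesis, had 60.6 and 50.6 CPM against 210 and 88.7 (log2 fold change -1.41, SE 0.30, adjusted p = 0.0253). Psph, the last enzyme of that route, was lower by 1.07 on the log2 scale. Gpt2, which makes alanine, had 1.75 and 0.725 against 7.53 and 4.29 (-2.26, SE 0.48, adjusted p = 0.0228). Asns, asparagine synthetase, was read from 9 counts in each CtslΔTEC library and 41 and 49 in WT (-2.26, SE 0.60, adjusted p = 0.0558). As in the sterol genes, WT mouse 5 was above WT mouse 6 in each of these, and the CtslΔTEC libraries were below both.

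Among regulators of the same group, Eif4ebp1, an inhibitor of cap-dependent translation, had 5.07 and 4.11 CPM against 15.1 and 9.42 (log2 fold change -1.39, SE 0.29, adjusted p = 0.0221). Cebpb had 2.97 and 2.36 against 12.5 and 6.19 (-1.77, SE 0.38), and its call was lost in both 13-library models. Trib3, a pseudokinase that restrains ATF4, had 1.92 and 1.69 against 12.1 and 4.37 (-2.12, SE 0.48). Chac1, which degrades glutathione, was read from 2 and 0 counts in CtslΔTEC and 15 and 28 in WT, too few for a fold change. Ddit3, which encodes CHOP, was the exception, with 79.0 and 59.0 against 49.8 and 49.2 (0.48, SE 0.15, adjusted p = 0.0982). Of amino acid transporters, 3 of 13 were called lower and 0 higher, namely the glycine carrier Slc6a9 (-1.71), Slc1a4 (-1.47) and Slc36a1 (-0.65). Of 20 tRNA synthetases 18 had a negative log2 fold change and only Aars (-0.52) was called, while 9 were called lower without WT mouse 6 and 9 in the 13-library model.

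The median deviation of the ATF4 group was -0.26 and -0.39 in CtslΔTEC, 0.63 in WT mouse 5 and -0.01 in WT mouse 6. Without WT mouse 5 it held 7 genes called lower and 0 higher, at a median of -0.30. Trib3, Asns, Chac1, Psph, Slc1a4 and Aars lost their calls without that library, and Ddit3 lost its call without WT mouse 5, WT mouse 6 or CtslΔTEC mouse 6. Chac1 also lost its call without CtslΔTEC mouse 7, Aars without either CtslΔTEC mouse, and Slc36a1 without either CtslΔTEC mouse or WT mouse 6. Sesn2, Eif4ebp1, Gpt2 and Slc6a9 held in all settings. Phgdh held without each library and was lost with DESeq2.

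Promoters of ATF4 group genes are shown for the letters of the C/EBP-ATF element. Sesn2 and Gpt2 are 2 of the 3 called genes with the smallest p, the other being Eif4ebp1, and Chac1 was added after its values were seen. Sesn2 is at chr4:132510407-132510706 on the minus strand, Gpt2 at chr8:85492326-85492625 on the plus strand and Chac1 at chr2:119350992-119351291 on the plus strand.
Sesn2: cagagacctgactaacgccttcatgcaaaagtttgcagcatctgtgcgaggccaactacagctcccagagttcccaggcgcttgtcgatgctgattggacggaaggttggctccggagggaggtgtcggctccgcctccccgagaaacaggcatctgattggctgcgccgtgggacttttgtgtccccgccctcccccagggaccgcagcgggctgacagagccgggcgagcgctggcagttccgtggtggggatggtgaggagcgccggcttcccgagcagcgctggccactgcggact
Gpt2: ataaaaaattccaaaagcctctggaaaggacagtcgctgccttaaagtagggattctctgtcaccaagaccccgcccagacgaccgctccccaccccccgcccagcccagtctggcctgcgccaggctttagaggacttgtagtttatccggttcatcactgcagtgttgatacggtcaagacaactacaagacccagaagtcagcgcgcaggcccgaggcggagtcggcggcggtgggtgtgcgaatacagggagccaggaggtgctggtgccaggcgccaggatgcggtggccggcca
Chac1: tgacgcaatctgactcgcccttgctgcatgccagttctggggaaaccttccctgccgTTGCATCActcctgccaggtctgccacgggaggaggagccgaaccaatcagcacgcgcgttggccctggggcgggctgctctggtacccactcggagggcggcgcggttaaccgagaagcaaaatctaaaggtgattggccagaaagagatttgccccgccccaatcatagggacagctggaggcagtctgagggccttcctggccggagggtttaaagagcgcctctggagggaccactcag
Chac1 held TTGCATCA, the element on the opposite strand, beginning 193 bases before the start. The other 2 windows held none of the 3 motifs. TGATGCAA was present in 4 of 29 promoters of the group (13.8%) and in 294 of all 32851 (0.895%).

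**Figure D2:**
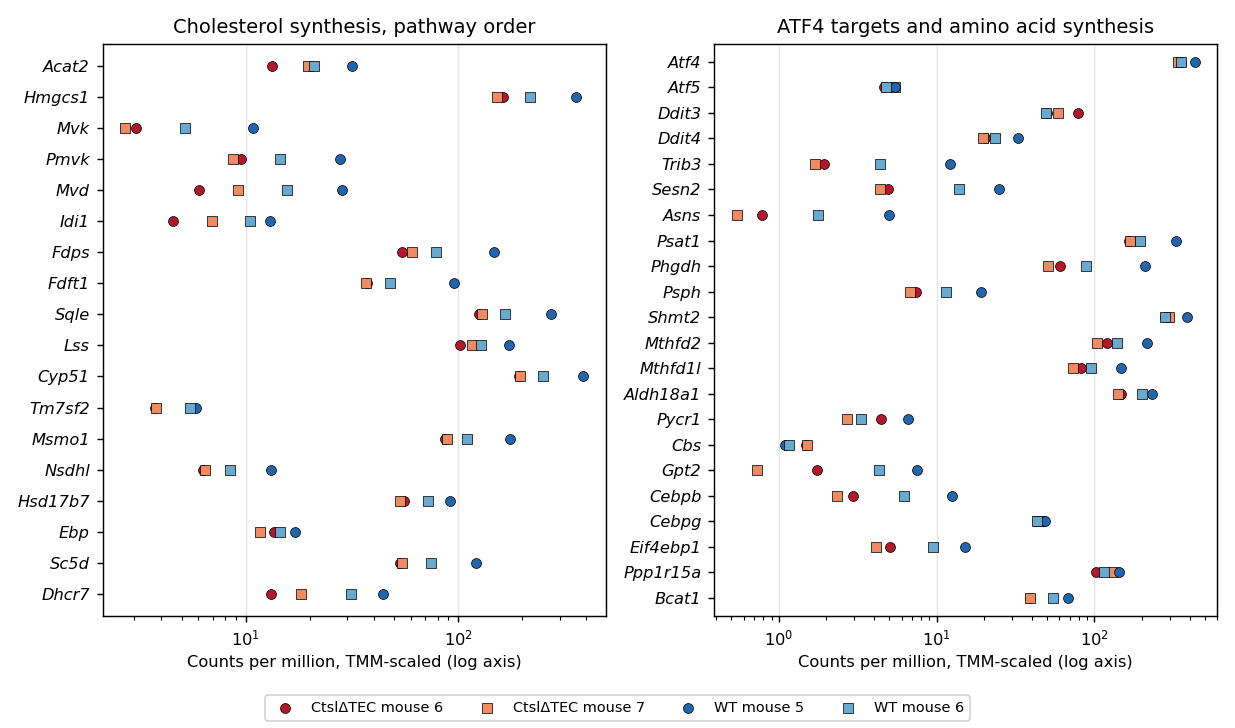
CPM (log axis) in each stimulated library for 18 of the cholesterol synthesis enzymes in pathway order (left) and the tested genes of the ATF4 group (right), without Chac1, which was at 0 in 1 library. Each point is 1 mouse, and WT mouse 5 is the highest library for all 18 enzymes on the left.

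Glycolytic genes were lower in part. Of 21 tested, 8 were called lower and 0 higher. Eno1, an enolase, had 97.4 and 96.1 CPM against 227 and 165 (log2 fold change -1.01, SE 0.16, adjusted p = 0.00594). The lactate exporter Slc16a3 had 11.6 and 11.7 against 28.3 and 20.01 (-1.03, SE 0.21). Pkm (-0.68), Ldha (-0.56) and the low-count Ldhb (-1.91) were also lower. The count was 3 without either CtslΔTEC mouse, 5 without WT mouse 5 and 3 with an offset for effective length. It was 12 without WT mouse 6 and 12 of 22 in both 13-library models. Eno1 and Slc16a3 held in every setting. Hypoxia targets gave 3 lower and 1 higher of 16, with 5 lower without WT mouse 6 and 0 lower with the length offset. Kdm3a, a histone demethylase, was higher by 0.65 (SE 0.13, adjusted p = 0.0151), and Bnip3l (-0.88), Vegfa (-1.74) and P4ha2 (-1.58) were lower, all 3 losing their calls with the length offset. Pkm and Ldha lost their calls without either CtslΔTEC mouse, Ldhb without CtslΔTEC mouse 6 or WT mouse 5, Vegfa without WT mouse 5, and P4ha2 without CtslΔTEC mouse 7 or WT mouse 6.

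Of 83 cytosolic ribosomal protein genes, 35 translation factors, 30 ribosome biogenesis genes and 24 genes of nucleotide synthesis, 0 were called, at medians of 0.00, -0.01, 0.11 and 0.00. Of 28 chaperones 0 were called as well. In these 5 lists, in the order given, edgeR gave 1, 2, 2, 1 and 2 genes with an unadjusted p under 0.05, and DESeq2 called 1 gene of ribosome biogenesis and 0 in the others. Of 78 mitochondrial ribosomal proteins only Mrpl34 (-1.35) and of 78 respiratory chain subunits only Ndufa5 (0.65) were called. In the proteasome list 2 of 38 were called, the immunoproteasome subunits Psmb10 (-1.19, SE 0.20, adjusted p = 0.00754) and Psmb8 (-0.58). The calls of Mrpl34 and Psmb8 were lost without WT mouse 5, and those of Ndufa5 and Psmb8 without CtslΔTEC mouse 6. These lists moved when a WT library was left out. Without WT mouse 6 the median was -0.16 for cytosolic and -0.09 for mitochondrial ribosomal proteins. It was -0.18 for the respiratory chain and -0.20 for the proteasome. Without WT mouse 5 these 4 medians were 0.18, 0.12, 0.13 and 0.09. Some genes of these lists were called in those fits, and without WT mouse 6 the number called over all genes rose as well. Myc, a driver of growth, had 1139 and 1311 CPM against 909 and 1088 (0.29, SE 0.17, adjusted p = 0.361).

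**Figure D3:**
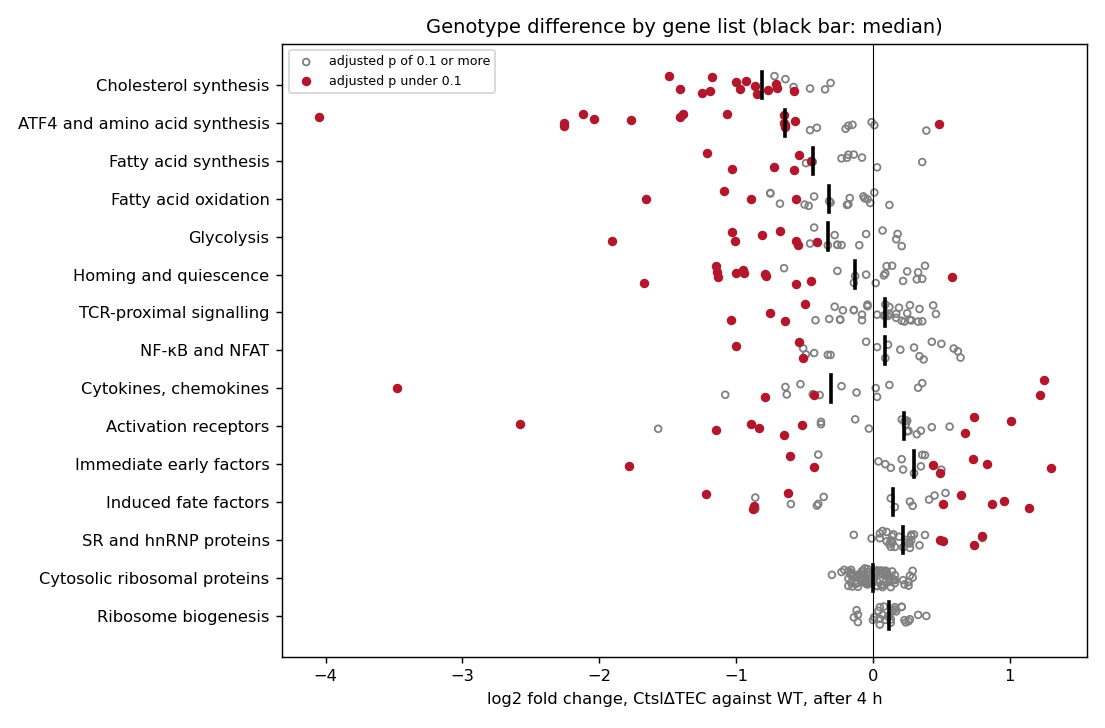
log2 fold change of each tested gene in 15 gene lists, with called genes filled in red and the median of the list as a black bar. The bar of cholesterol synthesis is at -0.81 and that of the ATF4 group at -0.64, while cytosolic ribosomal proteins centre on 0.00.

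**Figure D4:**
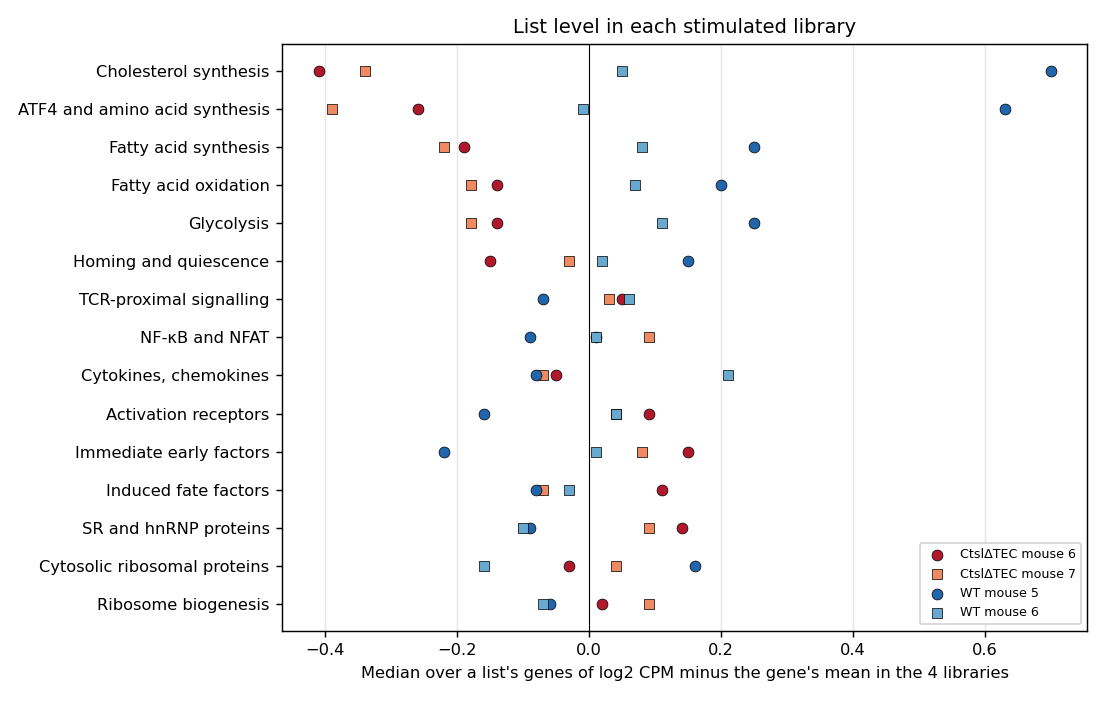
Median over the genes of each list of log2 CPM minus the gene's mean over the 4 libraries, for each stimulated library. In the upper 5 lists both CtslΔTEC mice are below both WT mice, and WT mouse 5 is the farthest right.

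Of 37 TCR-proximal genes 4 were called lower and 0 higher, at a median of 0.09. Ubash3a, a phosphatase that restrains TCR signalling, had 60.0 and 62.0 CPM against 127 and 124 (log2 fold change -1.04, SE 0.13, adjusted p = 0.00147), with almost no spread within a genotype. The adaptors Dok2 (-0.64) and Sla2 (-0.75), both inhibitory, were also lower. In the NF-κB and NFAT list 3 of 21 were lower. Ppp3ca, the catalytic subunit of calcineurin, had 20.01 and 19.2 against 39.6 and 38.6 (-1.0, SE 0.14, adjusted p = 0.00395), and Nfkbie (-0.54) and Rcan3 (-0.51) followed. Sla2 lost its call without WT mouse 5 and without CtslΔTEC mouse 6, Nfkbie without CtslΔTEC mouse 6 and Rcan3 without either CtslΔTEC mouse. The direction of the calls in both lists depended on WT mouse 6. Without it each list had more genes called higher than lower. Calls of higher genes also rose over all genes there. The medians were then 0.12 for the TCR-proximal list and 0.07 for the NF-κB and NFAT list. DESeq2 called 2 higher and 5 lower in the TCR-proximal list and 5 higher and 2 lower in the NF-κB and NFAT list. The inhibitory receptors Cd5 and Cd6, which mark the strength of self-recognition, did not pass the test. Cd5 had 1461 and 1328 CPM against 1650 and 1651 (-0.24, SE 0.17, adjusted p = 0.448), and Cd6 had 1165 and 1088 against 1088 and 1116 (0.03, SE 0.16).

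Immediate early factors were called in both directions. Of 19 tested, 5 were higher and 3 lower. Besides Nr4a2, Nr4a3 had 2483 and 2271 CPM against 1118 and 1751 (log2 fold change 0.73, SE 0.22, adjusted p = 0.0888). Jun had 23.5 and 27.1 against 15.3 and 13.4 (0.83, SE 0.18, adjusted p = 0.0236). Ier2 (0.44) and Maff (0.49) were also higher. Fosl1, an AP-1 subunit, had 2.27 and 2.78 against 9.47 and 8.22 (-1.78, SE 0.29, adjusted p = 0.00759), and Fos (-0.43) and Atf3 (-0.61) were lower. Nr4a1 had 5323 and 5683 against 3606 and 4854 (0.38, SE 0.23, adjusted p = 0.392) and Egr1 1193 and 853 against 584 and 864 (0.50, SE 0.22, adjusted p = 0.223), and neither passed the test. The calls of Nr4a3, Ier2, Maff, Fos and Atf3 were each lost without at least 2 of the libraries, that of Jun was lost in both 13-library models, and those of Nr4a2 and Fosl1 held in every setting. The list had 9 genes called higher without WT mouse 6 and 2 without either CtslΔTEC mouse.

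Feedback inhibitors also went both ways, with 2 higher and 4 lower of 17. Spry2 had 32.3 and 34.4 CPM against 15.5 and 17.5 (log2 fold change 1.00, SE 0.16, adjusted p = 0.00604). Socs3, which blocks cytokine receptors, had 2.97 and 5.14 against 1.34 and 1.13 (1.76, SE 0.43), a call lost without CtslΔTEC mouse 7. Rgs10 (-0.71), the MAP kinase phosphatases Dusp10 (-0.76) and Dusp6 (-0.58), and Spred2 (-0.46) were lower, and Dusp6 lost its call without CtslΔTEC mouse 7 and Spred2 without either CtslΔTEC mouse 7 or WT mouse 6.

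Of 35 cytokine and chemokine genes 18 passed the count filter. Beside Il2, the cytokine Lif had 45.3 and 58.8 CPM against 73.6 and 106.2 (log2 fold change -0.79, SE 0.18, adjusted p = 0.0341), and Tnfsf11, which encodes RANKL, was lower by 0.43 (adjusted p = 0.0727). Ccl4, a chemokine of activated T cells, went the other way, with 83.5 and 78.7 against 24.2 and 44.0 (1.22, SE 0.22, adjusted p = 0.0106), as did Ccl3 with 5.68 and 3.93 against 2.19 and 1.89 (1.25, SE 0.36, adjusted p = 0.0763). Tnf had 832 and 759 against 450 and 790 (0.36, SE 0.23, adjusted p = 0.405), so the genotypes overlapped. Tnfsf11 lost its call without either CtslΔTEC mouse, and Ccl3 without CtslΔTEC mouse 6 and without either WT mouse. The list had 5 genes called higher and 4 lower without WT mouse 6, and 1 higher and 5 lower without WT mouse 5 or CtslΔTEC mouse 6.

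The Il2 promoter is shown because the gene had the largest negative fold change of the genes whose log2 CPM averaged 3 or more, and it was chosen after its values were seen. It is at chr3:37125905-37126204 on the minus strand, with the NFAT core GGAAA in capitals, searched on both strands.
Il2: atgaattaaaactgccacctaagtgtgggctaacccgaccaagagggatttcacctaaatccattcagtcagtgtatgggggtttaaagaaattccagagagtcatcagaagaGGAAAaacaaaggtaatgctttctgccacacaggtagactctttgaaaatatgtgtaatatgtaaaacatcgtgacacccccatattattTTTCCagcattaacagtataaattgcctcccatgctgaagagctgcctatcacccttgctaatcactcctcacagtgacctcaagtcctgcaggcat
The core was found at 2 places, beginning 137 and 47 bases before the start. It was present in 61.3% of all 32851 promoters. The AP-1 element TGANTCA was not present in this window and was present in 7.81% of all.

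Receptors of activated T cells gave 3 higher and 6 lower calls of 25. Slamf1 had 680 and 590 CPM against 264 and 366 (log2 fold change 1.01, SE 0.17, adjusted p = 0.00961). The inhibitory receptor Pdcd1 (PD-1) had 207 and 184 against 107 and 138 (0.67, SE 0.15, adjusted p = 0.0282). Vsir, the checkpoint protein VISTA, had 2019 and 2075 against 994 and 1460 (0.74, SE 0.21, adjusted p = 0.0649). In each of the 3 the lowest library was WT mouse 5. Cd44, an adhesion receptor of activated cells, had 130 and 109 against 194 and 337 (-1.15, SE 0.22, adjusted p = 0.0141). The costimulatory receptor Tnfrsf4 (OX40) had 20.7 and 25.9 against 45.4 and 41.2 (-0.89, SE 0.15, adjusted p = 0.00999). Cd200 (-0.52) and Tnfrsf18 (-0.65) were also lower. The early activation marker Cd69 had 3270 and 3133 against 2536 and 2502 (0.35, SE 0.19, adjusted p = 0.334), and Il2ra had 778 and 729 against 616 and 685 (0.21, SE 0.15). Cd28 (0.24), Btla (-0.13) and Cd4 (-0.08) did not pass the test. Pdcd1, Cd200 and Tnfrsf18 lost their calls without CtslΔTEC mouse 6, Tnfrsf18 also without WT mouse 5, and Vsir without either CtslΔTEC mouse, while Btla was called lower without WT mouse 5 (-0.37). Slamf1, Tnfrsf4 and Cd44 held in every setting. The list had 7 genes called higher and 6 lower without WT mouse 6, and 1 higher and 3 lower without CtslΔTEC mouse 6.

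Itgax, an integrin subunit that marks dendritic cells and can also be expressed by activated T cells, was lower in CtslΔTEC at 0.437 and 1.03 CPM against 5.71 and 14.5 (log2 fold change -3.75, SE 0.51, adjusted p = 0.00309). The 6 dendritic cell markers, Itgax included, summed to 1.40 and 0.723 TPM in CtslΔTEC and 2.93 and 9.29 TPM in WT. The 5 genes of MHC class II presentation summed to 20.6 to 26.9 TPM over the 4 libraries, and 8 myeloid markers to 5.83 to 15.1 TPM. The erythroid markers varied within a genotype, at 9.67 and 63.1 TPM in CtslΔTEC and 34.8 and 34.5 TPM in WT. The part of other cells in the differences was not tested. In bulk samples, fewer cells of a type and less RNA per cell cannot be told apart.

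Transcription factors that direct T cell fate gave 5 higher and 4 lower calls of 22. Irf8 had 49.9 and 44.2 CPM against 21.4 and 26.6 (log2 fold change 0.96, SE 0.15, adjusted p = 0.00624). Rora (1.14) and Runx1 (0.51) were also higher. Runx3, a factor of the CD8 lineage, had 7.08 and 9.42 against 17.7 and 20.9 (-1.22, SE 0.21, adjusted p = 0.0103). Gata3, needed for CD4 development and TH2 fate, had 24.3 and 33.5 against 49.2 and 56.6 (-0.87, SE 0.17, adjusted p = 0.0150), and Bhlhe40 (-0.62) and Batf (-0.88) were lower. Without WT mouse 5, 2 genes of the list were called higher and 6 lower. Runx1 lost its call without WT mouse 5 or either CtslΔTEC mouse, Batf without WT mouse 5 or CtslΔTEC mouse 6, and Bhlhe40 without CtslΔTEC mouse 7.

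Genes of homing and quiescence were lower more often than higher, at 11 against 1 of 28. Il7r, the receptor of the survival cytokine IL-7, had 13.9 and 9.36 CPM against 43.1 and 30.8 (log2 fold change -1.67, SE 0.23, adjusted p = 0.00302). The gut-homing integrin Itgb7 (-1.0) and the GTPase Gimap4 (-0.78) were lower, while Btg2, which slows division, was higher by 0.58 (adjusted p = 0.0443). Among chemokine receptors, Ccr4 had 126 and 88.9 against 222 and 248 (-1.13, SE 0.17, adjusted p = 0.00423) and Ccr7, which guides cells to lymph nodes, was lower by 0.95 (adjusted p = 0.0628). Ccr9, which responds to a chemokine of the thymus and gut, was higher, with 303 and 204 against 97.9 and 152 (1.01, SE 0.22, adjusted p = 0.0258). Cxcr5 was higher by 0.88 (adjusted p = 0.0947). The homing list had 7 genes called lower and 2 higher without WT mouse 5 and with DESeq2, 11 lower and 4 higher without WT mouse 6, and 6 lower and 0 higher with the length offset, where Itgb7, Ccr7, Cxcr5 and Btg2 lost their calls. Ccr7 also lost its call without WT mouse 5 and with DESeq2, Cxcr5 without WT mouse 5 or CtslΔTEC mouse 7 and with DESeq2, and Btg2 without CtslΔTEC mouse 6.

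Both chains of CD8, which CD4SP cells switch off as they mature, were higher. Cd8b1 had 34.3 and 33.7 CPM against 9.47 and 8.33 (log2 fold change 1.95, SE 0.17, adjusted p = 0.000206), and Cd8a had 10.3 and 12.6 against 0.972 and 2.29 (2.65, SE 0.35, adjusted p = 0.00262). Neither gene overlapped between the genotypes, and 3063 of all 11763 genes tested were likewise higher without overlap. Cd8b1 and Cd8a were among the 3 called genes of 14 from the preceding double-positive stage, all higher. The other CD8 lineage factor tested, Runx3, was lower. Rag1 was read from 16, 17, 2 and 15 counts (1.39, SE 0.59, adjusted p = 0.212). Tmie (0.73) and Slc16a5 (0.23) did not pass the test.

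The BCL2 family gave 1 higher and 2 lower calls of 15. Bcl2l11, which encodes the death-inducing protein BIM, had 161 and 193 CPM against 257 and 290 (log2 fold change -0.63, SE 0.14, adjusted p = 0.0283). Bmf was lower by 1.41 at under 3 CPM, and Bcl2a1b was higher by 0.40 (adjusted p = 0.0973), with reads that near-identical copies can share. Bcl2 had 154 and 150 against 109 and 174 (0.10, SE 0.19), so the genotypes overlapped, and was called higher without WT mouse 6 (0.48). Of 32 genes of G1 and replication 2 were higher and 2 lower. Cdk6, the kinase of early G1, had 33.1 and 32.9 against 82.5 and 82.6 (-1.32, SE 0.12, adjusted p = 0.000274), with almost no spread within a genotype. Ccnd3 (-0.48) was lower, and Mcm5 (0.53) and Prim1 (0.78), which act in DNA replication, were higher. Bcl2l11 and Mcm5 lost their calls without CtslΔTEC mouse 6, Bcl2a1b and Bmf without either CtslΔTEC mouse, Bmf also without either WT mouse, Ccnd3 without CtslΔTEC mouse 6 or WT mouse 5, and Prim1 without CtslΔTEC mouse 7. Without WT mouse 6 the list of G1 and replication had 3 genes called higher and 4 lower, and without CtslΔTEC mouse 6 the BCL2 family had 0 called.

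Of 33 SR and hnRNP genes, which control splicing, 4 were called higher and 0 lower, against a background of 2.88% higher, at a median of 0.22. Hnrnph1 had 918 and 889 CPM against 467 and 573 (log2 fold change 0.80, SE 0.16, adjusted p = 0.0173). Hnrnpll, which controls splicing of CD45, was higher by 0.74 (adjusted p = 0.0382), and Tra2a (0.49) and Hnrnph3 (0.51) were higher. Of 48 genes of mRNA export and the nuclear pore, 4 were higher and 0 lower, namely Xpo1 (0.53), Thoc1 (0.53), Thoc2 (0.49) and Ranbp2 (0.47). Both counts moved with 1 library. Without WT mouse 6 both rose, as did the higher calls over all genes, and without any other library both fell. With 1 library left out, the median of the SR and hnRNP genes ran from 0.16 to 0.25. That of the export genes ran from 0.09 to 0.15. Both 13-library models called 3 export genes higher and 2 lower. The calls of Tra2a, Hnrnph3, Thoc1, Thoc2 and Ranbp2 were lost without WT mouse 5 or either CtslΔTEC mouse, and that of Xpo1 without CtslΔTEC mouse 7. Hnrnph1 held in every setting. With the length offset 1 gene of each list was called higher. The share of retained-intron transcripts was also higher in both CtslΔTEC mice (7.94% and 8.55%, against 5.995% and 7.63% in WT), and its part in these lists was not tested. Nlrc5, which turns on MHC class I genes, was higher by 0.74 (SE 0.18, adjusted p = 0.0407). Of 15 interferon-stimulated genes and 12 mitotic genes edgeR and DESeq2 called 0, with 1 gene in each list under an unadjusted p of 0.05. The 13-library models called 4 of 26 interferon-stimulated genes lower. Of the 5 Treg markers 4 were tested, 2 had a positive and 2 a negative log2 fold change, and 1, Capg, was called lower by 0.80 (adjusted p = 0.0259). Their summed level was 354 and 337 TPM in CtslΔTEC and 321 and 357 TPM in WT. Ctsl had 6.47 and 5.92 against 6.07 and 3.09 (0.51, SE 0.35, adjusted p = 0.445).

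An offset for effective length, which corrects each gene in each library for the length of the transcripts it was read from, ended more calls than any other setting. It lost 60 of the 145 called genes examined for stability, with no change of sign. Among enzymes and metabolic genes it ended the calls of Mvk, Idi1, Fdft1, Stard4, Npc2, Insig2, Slc25a1, Decr1, Etfb, Ddit3, Trib3, Asns, Psph, Slc36a1, Aars, Ldhb and Ldha. Among signaling genes, transcription factors and cytokines it ended those of Dok2, Sla2, Nfkbie, Nr4a3, Ier2, Maff, Fos, Atf3, Ccl3, Lif, Tnfsf11, Cd200, Tnfrsf18, Rora, Gata3, Bhlhe40, Batf, Dusp6 and Spred2. Among the remaining groups it ended those of Bmf, Bcl2a1b, Mcm5, Prim1, Ccnd3, Hnrnpll, Tra2a, Hnrnph3, Thoc1, Thoc2, Ranbp2, Ndufa5, Mrpl34 and Psmb8. With it 10 cholesterol enzymes were called lower at a median of -0.84. The genes called lower were 8 in the ATF4 group, 3 of fatty acid synthesis, 2 of fatty acid oxidation, 1 of the TCR-proximal list and 2 activation receptors. Immediate early factors had 2 called higher and 1 lower. The 13-library model also ended the calls of Idi1, Insig2, Ddit3, Ldhb, Ier2, Maff, Fos, Atf3, Ccl3, Tnfsf11, Bhlhe40, Cxcr5, Bcl2a1b, Dusp6, Thoc2, Ranbp2 and Ndufa5 in at least 1 of its 2 forms, with and without the Y-linked covariate.

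The differences after stimulation were set beside those in the 9 unstimulated libraries, which come from other mice. Of the 1127 genes called after stimulation, 362 (32.1%) were also called in unstimulated cells, where 1729 genes were called, of which they made up 20.9%. Of all 11763 genes tested after stimulation, 1521 (12.9%) were called in unstimulated cells. For 343 of the 362 the direction was the same. The interaction of genotype and stimulation, which tests whether the genotype difference itself changed, was called for 856 genes, 161 positive (1.13%) and 695 negative (4.88%) of 14241 tested in the 13-library model. It was called for 451 of the 1127. The number of interaction calls was 334 without CtslΔTEC mouse 6 and 340 without WT mouse 5. In the unstimulated libraries genotype and sex were not balanced. Y-linked transcripts were high in all 5 CtslΔTEC mice and in 1 of 4 WT mice. With the level of Y-linked transcripts as a covariate the unstimulated calls went from 1729 to 750, the genes called in both states from 362 to 224 and the interaction calls from 856 to 674. The part of sex in the differences that the covariate did not remove was not tested. The stimulated libraries share 1 date that no unstimulated library has, and the effects of stimulation and of date cannot be told apart.

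Some differences were also called before stimulation. Cd8b1 was higher by 1.95 after stimulation and by 2.21 before (interaction -0.31, adjusted p = 0.437), and Cd8a by 2.65 and 2.74 (interaction -0.16, adjusted p = 0.877). The double-positive stage list as a whole differed more before stimulation. There 10 of 16 genes were called higher at a median of 1.16, against 613 of 11763 over all genes. After stimulation it was 3 of 14 at a median of 0.38. The interaction was called negative for 4 of the 16, against a background of 4.88%. Cd44 was lower by 1.15 and 1.01 on the log2 scale and Gata3 by 0.87 and 0.81. Igfbp4 had -2.55 and -2.82. On the log2 scale Ccr8 differed less after stimulation than before, at -2.57 against -5.64 (interaction 3.02, adjusted p = 0.0172). Before stimulation Ccr8 was near the floor in CtslΔTEC cells, at 0.030 to 0.152 CPM against 2.61 to 9.72 in WT, so its -5.64 rests on few counts. Ybx3 (-2.03 and -3.23, interaction 1.15, adjusted p = 0.0142) and Ptgir (-1.97 and -3.15, interaction 1.13, adjusted p = 0.0358) also differed less on this scale after stimulation.

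For other genes the interaction was called and the 2 differences stood as follows. Adgre5 was at 0.00 (SE 0.08) before and 1.59 after stimulation, with an interaction of 1.54 (SE 0.15, adjusted p = 0.000641). Nrn1 was at 0.33 and 2.56 (interaction 2.19, adjusted p = 0.0160). Irf8 went from -0.28 to 0.96 (interaction 1.20, adjusted p = 0.00555), Runx1 from -0.28 to 0.51 (0.74) and Vsir from -0.23 to 0.74 (0.91). On the negative side, Ubash3a went from 0.13 to -1.04 (interaction -1.22, SE 0.13, adjusted p = 0.000641). Bcl2l11 was higher by 0.53 in unstimulated CtslΔTEC cells and lower after stimulation, with an interaction of -1.21 (adjusted p = 0.00236). Scd2 went from 0.50 to -1.03 (-1.58, adjusted p = 0.00389) and Hadh from -0.17 to -1.66 (-1.51, adjusted p = 0.00389). Cdk6 (-1.06) and Runx3 (-1.06) were of the same kind. Cd5 and Cd6 were lower before stimulation, by 1.08 and 0.73 on the log2 scale, and nearer to 0 after it, at -0.24 and 0.03, where neither was called. Their interactions were 0.78 (adjusted p = 0.0339) and 0.71 (adjusted p = 0.0183). With the Y-linked covariate these interactions kept an adjusted p under 0.1, and the unstimulated difference of Bcl2l11 was 0.46 (adjusted p = 0.0505), while the unstimulated difference of Scd2 was no longer called (0.43, adjusted p = 0.257).

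In unstimulated cells 7.06% of the 14241 genes were called lower. Of the 20 cholesterol enzymes, 2 were called lower there, at a median of -0.11, and the interaction was called negative for 9 against a background of 4.88%. In the ATF4 group 3 of the genes were lower in unstimulated cells, at a median of 0.03, and 6 of 24 had a negative interaction, Sesn2 (-1.79, adjusted p = 0.00558) and Phgdh (-1.83, adjusted p = 0.00779) among them. For glycolysis, 11 of 22 genes were lower in unstimulated cells at a median of -0.24, and 3 of the 22 had a negative interaction. With the Y-linked covariate, 0 cholesterol enzymes, 0 genes of the ATF4 group and 4 glycolytic genes were called lower in unstimulated cells, and 8, 6 and 3 had a negative interaction. The interaction of Il2 was -3.91 with an adjusted p of 0.283, since unstimulated cells gave almost no Il2 counts.

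**Figure D5:**
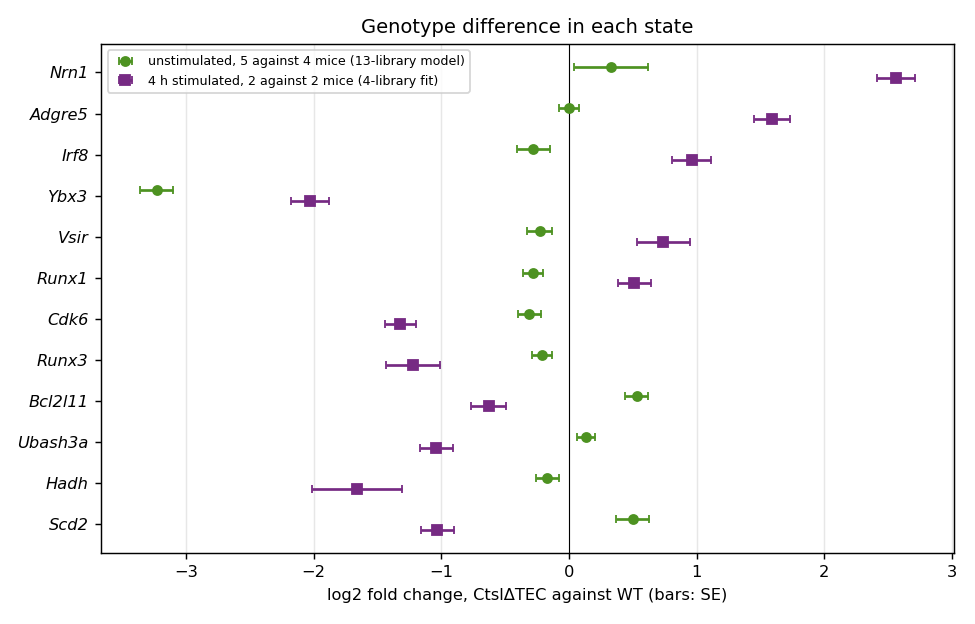
Genotype difference as log2 fold change with its SE for the 12 named genes with the smallest interaction p in each direction, in unstimulated cells (green circles) and after 4 h (purple squares). Adgre5 lies at 0.00 before and 1.59 after stimulation, while Ybx3 is at -3.23 and -2.03.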

How the data were processed

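RNA of FACS-sorted M2 CD4SP thymocytes was sequenced as paired reads of 150 bases. With kallisto 0.48 and the transcripts of Ensembl 106, the authors made and deposited, for each library, estimated counts and TPM per transcript. The labels call the RNA polyA, whereas the study's methods describe rRNA depletion. Estimated counts were summed to genes through GENCODE M21 (GRCm38), which held 116397 of the 117497 transcripts, and rounded. TPM served for summed marker levels, the ribosomal protein share and the rule for lists without calls.

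The 4 stimulated libraries were compared with edgeR 4.0.16 (R 4.3.3): TMM factors, filterByExpr, quasi-likelihood test, Benjamini-Hochberg adjustment over 11763 genes, adjusted p under 0.1. A 4-group fit of all 13 libraries gave the unstimulated difference and the interaction. DESeq2 1.42.0, other scalings, filters and left-out libraries were alternatives. The pipeline was tested on simulated data.

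Genes were named by rule: the 12 with the largest fold change in each direction (adjusted p under 0.1, mean of at least 3 log2 CPM, no overlap between genotypes), up to 4 called members of each list and direction, the study's own genes, and 6 by interaction in each direction. Further members were added with their values known. Members, lists and tests were chosen with earlier results of these data known. Each library was 1 mouse, so p-values measure the spread between mice. Some genes are counted in their lists but not reported here.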

Additional observations from a re-analysis of the deposited data

Results flagged for a closer look

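For 12 named genes the genotype difference after stimulation was set against that in unstimulated cells, by the interaction term of edgeR's fit of all 13 libraries. The interaction, on the log2 scale, was positive for Nrn1 (2.19), Adgre5 (1.54), Irf8 (1.20), Ybx3 (1.15), Vsir (0.91) and Runx1 (0.74). It was negative for Scd2 (-1.58), Hadh (-1.51), Ubash3a (-1.22), Bcl2l11 (-1.21), Cdk6 (-1.06) and Runx3 (-1.06). These genes were picked by the smallest interaction p, at an adjusted p under 0.1, among the genes named. A difference between the states was thus fixed by the choice. All 12 kept an adjusted p under 0.1 with the level of Y-linked transcripts as a covariate, in the same libraries. Their interactions with 1 library left out are not given here. Stimulated and unstimulated libraries differ in date, and its part was not tested.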

How the results depend on the processing

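The 1127 genes called after stimulation became 1898 in the 4-group model of 13 libraries, 1861 in that model with a Y-linked covariate, 494 with an effective length offset, 636 at an adjusted p under 0.05 and 370 at an absolute log2 fold change of at least 1. Leaving out 1 library gave 671 (without CtslΔTEC mouse 6) to 2254 (without WT mouse 6). The share of higher calls was 30.1% and became 49.2% without WT mouse 6. The 856 interaction calls became 471 at an adjusted p under 0.05, and 334 (without CtslΔTEC mouse 6) to 1227 (without WT mouse 6) with 1 library left out. Leaving out a library leaves an arm of 1 mouse, which is assumed to vary like the other. Of 145 called genes among those tested for stability, 62 kept their call in every other setting that tested them (16, or 15 for Cd8a and Itgax) and 76 without each library, and 60 lost it with the length offset, 8 of them in no other setting. No called gene changed sign, which leaving out 1 library could hardly bring about where the genotypes do not overlap. Among genes not called, Cd6 became -0.02 in both 13-library models and with library totals. With 1 library left out, the log2 fold change ran from -0.03 to 0.09 for Cd6, -0.37 to 0.16 for Btla, -0.19 to 0.48 for Bcl2, -0.27 to 0.14 for Cd4 and -0.10 to 0.47 for Slc16a5. The cause was not tested. The Y-linked term, and the Y-linked covariate for the unstimulated difference, were added after the data were seen. The planned Y-linked covariate left 674 interaction calls. No paired analysis was possible because the stimulated genotypes share only mouse number 6, and each mouse gave 1 library. The total of WT mouse 5 limits the genes under a few CPM.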
